A study of Homo sapiens with 6 samples.

Results

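The 8 genes CENPF, CENPE, CENPA, HJURP, CENPI, NDC80, NUF2 and SPC25 encode proteins of the centromere and the kinetochore. They were taken by name from the 60252 gene IDs of a table of RNA read counts. The counts come from RPE-1, a telomerase-immortalised human cell line from retinal pigment epithelium. All conditions share this line, and no allele was changed. In 4 of the 6 conditions cells were held in early S phase by 2 mM thymidine for 24 h and released by washing. Treatment began 1 h after washing, with DMSO as solvent control or with AZ20, an inhibitor of the kinase ATR, at 2 µM. Cells were collected 4 h after release, following 3 h of treatment (4h_DMSO and 4h_ATRi), or 6 h after release, following 5 h of treatment (6h_DMSO and 6h_ATRi). The design text places the earlier time in late S phase and the later one in G2. The remaining conditions were cells left in thymidine (arrested) and asynchronous cells (cycling). Each condition was made in 3 independent experiments, lettered A, B and C. For 6h_ATRi only A and B were analysed, since C is not used here, which leaves 17 libraries.

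A centromere is marked by nucleosomes that hold CENPA, a variant of histone H3, and HJURP is the chaperone that loads it. CENPI belongs to the inner group of kinetochore proteins that sits on this chromatin. NDC80, NUF2 and SPC25, with SPC24, form the NDC80 complex, which grips spindle microtubules. CENPE, a kinesin motor, and CENPF, a large coiled-coil protein, join the outer kinetochore and its corona in mitosis. Many of these genes are transcribed mainly in G2 and mitosis. ATR responds to replication stress and restrains entry into mitosis.

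The promoters of 5 of the genes are shown because CENPF, CENPE, CENPA and HJURP rose between arrest and 6 h of release, while SPC25 was not called in any comparison. SPC25 had only 2 to 14 counts per library, and NDC80 and NUF2, whose promoters are not shown, were not called either. Each sequence is from RefSeq (GRCh38.p14), runs from 250 bases before the gene's start to 50 after it, and is written 5′ to 3′ on the gene's strand. Capitals mark TTTGAA and its variants TTTAAA and TTCGAA, which match the cell cycle genes homology region, CCAAT, the NF-Y box, and TTTCCCGC, an E2F-type motif. The CENPF window is chr1:214602945-214603244 on the plus strand, and that of CENPE is chr4:103198294-103198593 on the minus strand. CENPA is read from chr2:26785806-26786105 on the plus strand. HJURP is read from chr2:233854486-233854785 and SPC25 from chr2:168890381-168890680, both on the minus strand.
CENPF: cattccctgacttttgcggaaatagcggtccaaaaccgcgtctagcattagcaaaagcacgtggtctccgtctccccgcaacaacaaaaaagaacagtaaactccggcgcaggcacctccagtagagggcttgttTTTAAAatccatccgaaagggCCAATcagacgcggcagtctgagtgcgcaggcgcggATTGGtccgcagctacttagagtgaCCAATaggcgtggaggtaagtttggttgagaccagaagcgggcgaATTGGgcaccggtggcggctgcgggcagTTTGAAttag
CENPE: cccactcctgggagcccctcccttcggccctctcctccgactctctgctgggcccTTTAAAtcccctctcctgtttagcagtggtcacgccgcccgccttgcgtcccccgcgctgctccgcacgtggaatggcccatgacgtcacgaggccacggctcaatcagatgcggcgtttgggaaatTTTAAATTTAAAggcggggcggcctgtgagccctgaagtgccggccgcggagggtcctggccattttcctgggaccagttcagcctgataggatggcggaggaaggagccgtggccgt
CENPA: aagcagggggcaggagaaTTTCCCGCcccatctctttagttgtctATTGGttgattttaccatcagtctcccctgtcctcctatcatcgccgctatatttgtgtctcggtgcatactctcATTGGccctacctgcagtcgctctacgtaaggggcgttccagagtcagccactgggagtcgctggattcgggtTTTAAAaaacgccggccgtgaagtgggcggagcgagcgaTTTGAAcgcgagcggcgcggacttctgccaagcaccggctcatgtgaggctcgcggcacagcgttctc
HJURP: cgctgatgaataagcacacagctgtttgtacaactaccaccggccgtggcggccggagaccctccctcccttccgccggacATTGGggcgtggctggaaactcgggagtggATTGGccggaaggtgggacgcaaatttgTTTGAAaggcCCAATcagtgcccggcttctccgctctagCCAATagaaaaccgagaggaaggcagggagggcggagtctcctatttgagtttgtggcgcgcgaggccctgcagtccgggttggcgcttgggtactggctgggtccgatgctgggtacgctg
SPC25: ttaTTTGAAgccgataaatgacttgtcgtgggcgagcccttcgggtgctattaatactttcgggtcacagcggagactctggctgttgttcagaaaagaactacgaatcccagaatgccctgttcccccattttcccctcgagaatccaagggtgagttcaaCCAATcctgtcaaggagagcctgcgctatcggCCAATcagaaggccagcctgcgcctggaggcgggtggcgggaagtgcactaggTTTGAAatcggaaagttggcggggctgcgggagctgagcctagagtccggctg

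All 8 genes matched a promoter entry, and both strands were searched with no motif overlapping another. TTTGAA stood in 6 of the 8 windows, against 15.2% of 35116 promoters of this length. In SPC25 a copy began 3 bases before the start, in CENPA 18 bases before it and in HJURP 111 bases before it. CENPE held no TTTGAA but 3 copies of TTTAAA, of which 2 adjoin. TTTAAA was found in 3 of the 8, against 12.2% of all promoters, and TTCGAA in NDC80 alone, against 1.45%. At least 1 of these 3 motifs was in 7 of the 8 windows, against 25.1% of all promoters. The CENPI window held none of the motifs searched. Whether the start used for CENPI is the gene's own first start was not tested, so this lack cannot be read as a trait of CENPI. CCAAT stood in 4 of the 8, with 4 copies each in CENPF and HJURP and 2 each in CENPA and SPC25, against 34.6%. TTTCCCGC occurred in CENPA alone, against 1.63%, and the related TTTGGCGC in none, against 0.652%. SPC25 holds TTTGAA and CCAAT as HJURP does, and the values of the 2 genes across conditions are given below.

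Library totals ran from 1758747 to 2357561 counts. Levels are CPM, which puts each library's counts on the same total after adjustment by TMM factors. The labelled cell type was checked against markers, among them 9 retinal pigment epithelium genes. Of these RPE65, RLBP1 and TTR had a mean below 1 CPM. TYR was at 1.32 and OTX2 at 2.13 CPM, each with 1 library at 0. MITF was at 4.76 and SERPINF1 at 20.0 CPM. BEST1, at 12828 CPM, and PMEL, at 323 CPM, share exon sequence with FTH1 and CDK2 on the opposite strand. They tell nothing of the cell type. Of 4 epithelial markers EPCAM and CDH1 were also below 1 CPM, while KRT8 was at 3839 and KRT18 at 283 CPM, a pair that overlaps on opposite strands in the annotation. Below 1 CPM were also 5 of 6 matched markers of other cell types, with CRX at 11.9 CPM. In 1644 of 2353 coding genes paired with an antisense feature, the antisense member held more counts, so a count on a gene with an opposite-strand overlap is uncertain as to its source. The strand setting of the counting is not given, and whether it also affected the counts of genes without such an overlap was not tested. The levels of the 8 genes, their order and their low counts are given with that limit. Of the 8 genes, HJURP overlaps MROH2A by 8 bases and NUF2 overlaps ENSG00000232995 by 5 bases. CENPA shares 138 bases, 7% of its exon length, with SLC35F6 on the same strand. A gene at 1 to 3 counts in a library is measured with large counting error, and the counts carry no molecular identifiers.

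Per kb of exon, CENPF had the highest mean level over the 17 libraries, 8.01 CPM per kb. HJURP followed at 5.65, NUF2 at 4.58, CENPA at 3.92, CENPE at 3.25, SPC25 at 2.40 and NDC80 at 1.71 CPM per kb. CENPI was lowest at 0.552 CPM per kb. The raw counts per library ran from 64 to 315 for CENPF and from 13 to 133 for CENPE, but from 2 to 14 for SPC25 and from 1 to 10 for CENPI. With CENPI below the filter on low counts, 7 of the 8 genes were tested among 13510 features. That filter asks for about 10 counts in as many libraries as the smallest condition holds.

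**Figure D1:**
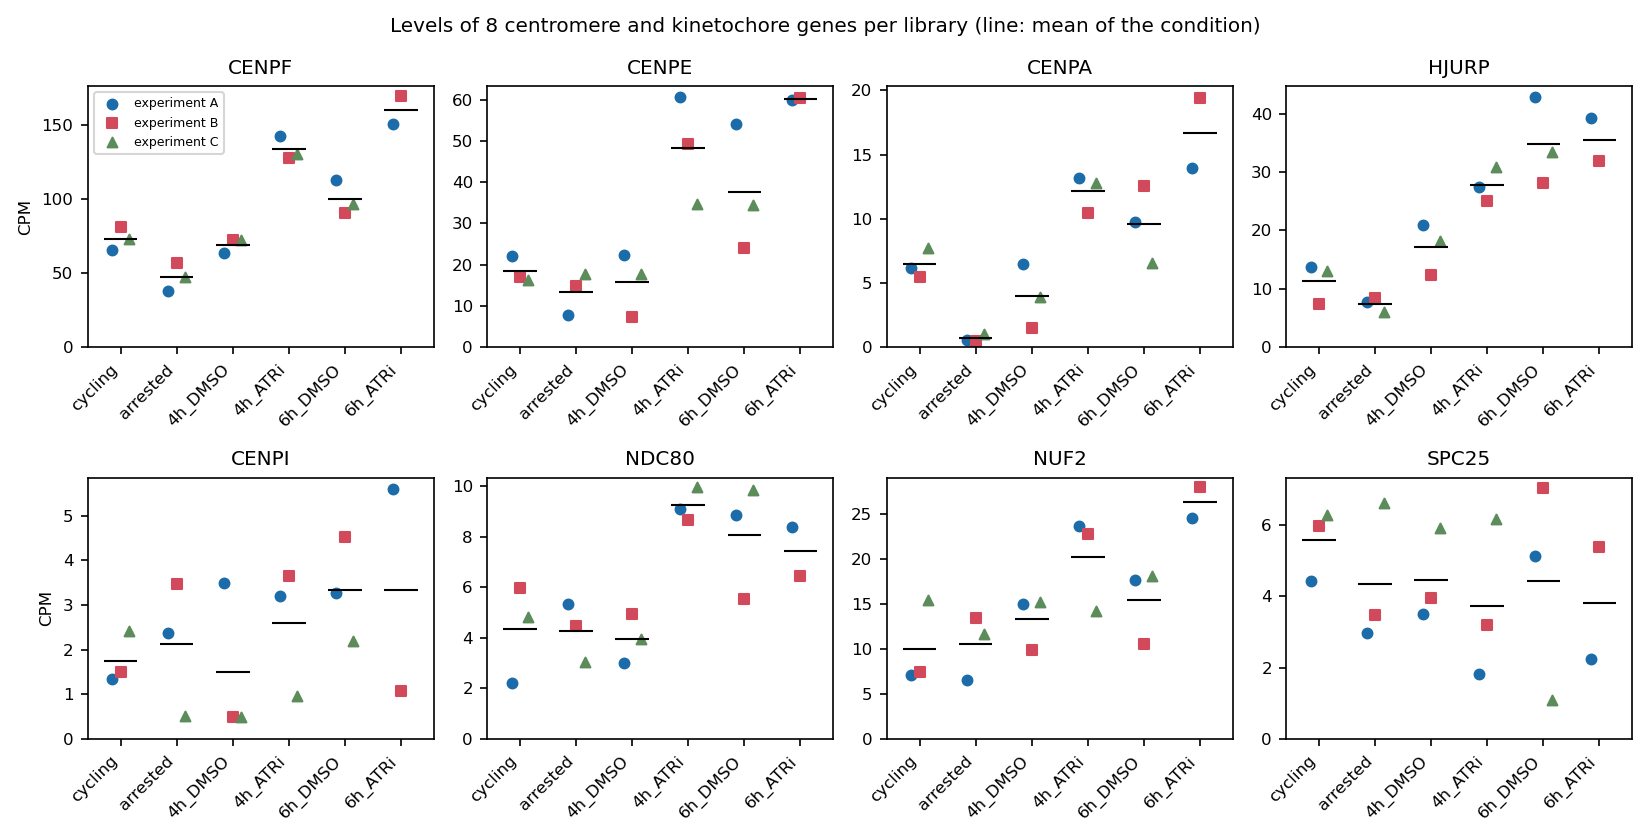
Level in CPM (vertical axis, linear, scaled per gene) of each of the 8 genes in every library of the 6 conditions (horizontal axis), with a point per library, shaped by experiment, and a line at the condition's mean. CENPF rises from 38.0 to 56.7 CPM in arrested cells to 151 and 170 CPM in 6h_ATRi, while SPC25 has overlapping libraries in every condition.

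CENPA itself, the centromeric histone, was close to undetected in arrested cells and rose after release. It had 0.593, 0.497 and 1.02 CPM in arrested libraries A, B and C, which are 1, 1 and 2 counts. In 4h_DMSO it was at 6.49, 1.49 and 3.94 CPM, and in 6h_DMSO at 9.79, 12.6 and 6.58 CPM. Every library without inhibitor that was released stood above every arrested one. The 4h_DMSO and 6h_DMSO libraries did not overlap, though 6.49 and 6.58 CPM are close. With inhibitor CENPA was at 13.2, 10.5 and 12.8 CPM at 4 h, and at 14.0 and 19.4 CPM in A and B at 6 h. Cycling cells had 6.21, 5.48 and 7.73 CPM. The order of the means was arrested, 4h_DMSO, cycling, 6h_DMSO, 4h_ATRi and 6h_ATRi. Within it 4h_DMSO overlapped cycling, cycling overlapped 6h_DMSO and 6h_DMSO overlapped 4h_ATRi.

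The loader of CENPA, HJURP, followed a similar course from a higher base. HJURP was at 7.71, 8.45 and 6.10 CPM in arrested cells and at 13.7, 7.47 and 13.0 CPM in cycling cells. In 4h_DMSO it had 21.0, 12.4 and 18.2 CPM and in 6h_DMSO 42.9, 28.1 and 33.4 CPM. Arrested libraries lay below every released one, and 4h_DMSO lay below 6h_DMSO in all 3 experiments. With inhibitor HJURP was at 27.4, 25.1 and 30.9 CPM at 4 h, above all of 4h_DMSO. At 6 h it was at 39.2 and 31.8 CPM, inside the range of 6h_DMSO.

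Among the outer proteins, CENPF had the higher level per kb, above CENPE. CENPF had 38.0, 56.7 and 47.8 CPM in arrested cells, 65.6, 81.2 and 73.4 CPM in cycling cells and 63.4, 72.3 and 72.4 CPM in 4h_DMSO. It had 113, 90.4 and 97.0 CPM in 6h_DMSO, 143, 128 and 131 CPM in 4h_ATRi, and 151 and 170 CPM in A and B of 6h_ATRi. Of the neighbours in this order only cycling and 4h_DMSO overlapped, so each inhibitor condition stood above every DMSO library of either time.

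CENPE, the kinesin, was at 7.71, 14.9 and 17.8 CPM in arrested cells, 22.2, 16.9 and 16.4 CPM in cycling cells and 22.5, 7.43 and 17.7 CPM in 4h_DMSO. It was at 54.1, 24.1 and 34.5 CPM in 6h_DMSO, 60.6, 49.3 and 34.7 CPM in 4h_ATRi, and 59.9 and 60.4 CPM in 6h_ATRi. The arrested, cycling and 4h_DMSO libraries overlapped and all lay below the other 3 conditions, which overlapped each other except that 6h_ATRi lay above 6h_DMSO.

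For the NDC80 complex the levels of NDC80, NUF2 and SPC25 are given gene by gene, and their courses were not tested against each other. NDC80 was at 5.34, 4.47 and 3.05 CPM in arrested cells, 2.22, 5.98 and 4.83 CPM in cycling cells and 2.99, 4.95 and 3.94 CPM in 4h_DMSO. It reached 8.86, 5.52 and 9.86 CPM in 6h_DMSO, 9.12, 8.67 and 9.97 CPM in 4h_ATRi and 8.40 and 6.47 CPM in 6h_ATRi. Arrested, cycling and 4h_DMSO libraries overlapped, and all of 4h_ATRi lay above them.
NUF2, the partner that pairs with NDC80 at the microtubule, ranged from 6.53 to 13.4 CPM in arrested cells, from 7.09 to 15.5 in cycling cells and from 9.91 to 15.3 in 4h_DMSO. It ranged from 10.5 to 18.1 CPM in 6h_DMSO and from 14.2 to 23.7 CPM in 4h_ATRi, and had 24.6 and 28.0 CPM in 6h_ATRi. Only 6h_ATRi stood clear of every other condition.
SPC25, which anchors the complex at the inner kinetochore, had means between 3.73 ± 2.22 CPM in 4h_ATRi and 5.56 ± 0.990 CPM in cycling cells (SD, n = 3 each). Its libraries overlapped in every pair of conditions.

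CENPI, the inner kinetochore gene, was too low to test. Its mean ran from 1.49 ± 1.73 CPM in 4h_DMSO to 3.34 ± 3.20 CPM in 6h_ATRi (SD, n = 3 and 2). Summed over libraries it had 17 counts in 4h_ATRi and 9 in 4h_DMSO, a ratio per total count of 1.76 with a 95% counting interval from 0.744 to 4.49. In 6h_DMSO it had 20 counts, a ratio to 4h_DMSO of 2.32 with an interval from 1.01 to 5.78. Both intervals cover counting error only, and the pseudogene CENPIP1 may share its reads.

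Cells given the inhibitor AZ20 for 3 h were compared with DMSO cells at 4 h after release. Whether a difference comes from ATR itself was not tested. CENPF rose by 0.95 ± 0.17 on the log2 scale (SE; adjusted p = 0.00402, edgeR's quasi-likelihood test with Benjamini-Hochberg adjustment over all 13510 features). CENPE rose by 1.60 ± 0.34 (adjusted p = 0.0491 in the same edgeR fit). These 2 of 7 tested genes were called higher and none lower, against 0.289% of all features called higher and 0.0222% lower. In bulk RNA a lower or higher share of cells in a given phase and less or more RNA per cell cannot be told apart.

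CENPA differed by 1.60 ± 0.41 at 4 h with an adjusted p of 0.134 by edgeR, and rose once the experiment was fitted as a block (adjusted p = 0.0115). That call was lost with the block and experiment B left out (1.33, adjusted p = 0.21), and DESeq2 gave an adjusted p of 0.203. With the block 3 of 7 genes were called higher, against 1.2% of all features. NDC80 differed by 1.21 ± 0.42 (adjusted p = 0.541), HJURP by 0.69 ± 0.26 (adjusted p = 0.636) and NUF2 by 0.60 ± 0.33 (adjusted p = 0.977), all by edgeR. SPC25 differed by -0.26 ± 0.58, with a 95% interval from -1.45 to 0.93. MROH2A, opposite HJURP, differed by 1.54 ± 0.81.
For CENPF, CENPE, CENPA, HJURP and NDC80, all 4h_ATRi libraries lay above all 4h_DMSO libraries. These are 5 of 8 genes, against 5.5% of tested features with such a gap upwards. That gap by itself makes the same 5 genes higher with inhibitor in 3 of 3 experiments, so this adds nothing to it. The differences within experiments ran from 0.81 to 1.16 for CENPF, from 0.93 to 2.58 for CENPE, from 0.93 to 2.21 for CENPA, from 0.70 to 1.34 for NDC80 and from 0.37 to 0.96 for HJURP (log2 CPM with a prior count of 2). NUF2 and CENPI were higher in 2 of 3 experiments and SPC25 in 1 of 3.

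CENPF kept its call with each of the 17 libraries left out, at adjusted p from 0.0021 to 0.0406 by edgeR. CENPE lies at the threshold and kept it in 6 of 17 such fits. By DESeq2 its adjusted p was 0.00407. By edgeR it was 4.17e-06 with the block and 0.0803 with only the compared conditions fitted. Its adjusted p by edgeR was 0.231 and 0.153 without 4h_ATRi A and B, and 0.145 and 0.193 without 4h_DMSO B and C. It was 0.0663, 0.0635 and 0.0791 without cycling A, B and C, 0.0776 without arrested B, 0.0719 without 6h_DMSO C, and 0.0836 and 0.0681 without 6h_ATRi A and B. In the authors' deposited table CENPF has a log2 fold change of 0.90 with an adjusted p of 4.37e-06 for this comparison. CENPE has 1.23 with an adjusted p of 0.00298 in the authors' deposited table.

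**Figure D2:**
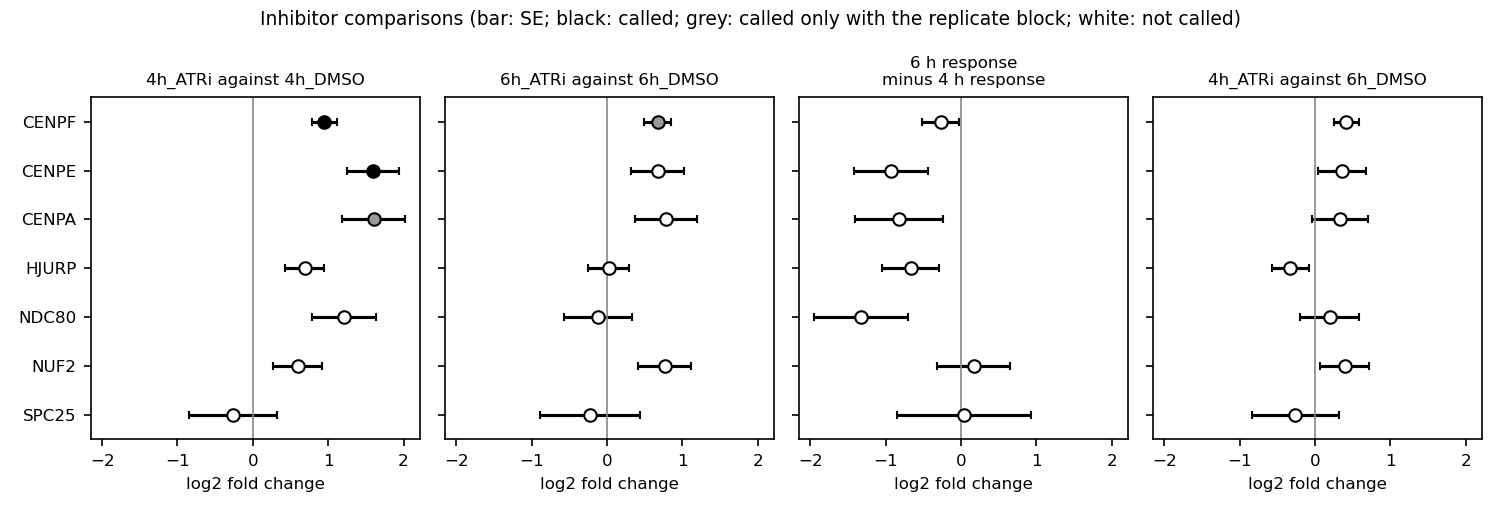
Log2 fold change (horizontal axis) with its SE for the 7 tested genes in the 3 comparisons of inhibitor with DMSO and in the difference between the 6 h and 4 h responses. Black points are called, grey ones only with the experiment as a block; at 4 h CENPF and CENPE are black and CENPA grey, and at 6 h CENPF alone is grey.

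At 6 h after release, which the design text places in G2, the inhibitor comparison has 2 against 3 libraries. By edgeR none of the 7 genes was called, against 0.0074% of all features called higher and 0% lower. CENPF and NUF2 had an unadjusted p under 0.05 and were higher, against 2.65% of all features, and DESeq2 called none. CENPF differed by 0.68 ± 0.18 (adjusted p = 0.479 by edgeR) and rose once the block was fitted (adjusted p = 0.00663). With the block and experiment B left out, which leaves 1 library of 6h_ATRi, CENPF differed by 0.53 and was not called (adjusted p = 0.491). That is 1 of 7 genes with the block, against 0.407% of all features. NUF2 differed by 0.77 ± 0.35, CENPA by 0.79 ± 0.41 and CENPE by 0.67 ± 0.35.
HJURP differed by 0.03 ± 0.27, with a 95% interval from -0.54 to 0.59, and NDC80 by -0.12 ± 0.45, with an interval from -1.05 to 0.81. Both 6h_ATRi libraries lay above all 6h_DMSO libraries for CENPF, CENPE, CENPA and NUF2. These are 4 of 8 genes, against 9.9% of features with such a gap upwards. In the authors' deposited table CENPF has 0.61 with an adjusted p of 0.0602 for this comparison.

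The response at 6 h was compared with that at 4 h directly. None of the 7 genes was called in either direction by edgeR, with 0% of all features called, and 1 gene, NDC80, had an unadjusted p under 0.05, with a lower response at 6 h, against 1.54% of all features. Across all features 401 had such a p in either direction, and DESeq2 called none of the 7 genes. NDC80's response was lower at 6 h by 1.33 ± 0.62 on the log2 scale. The difference was -0.93 ± 0.49 for CENPE, -0.82 ± 0.58 for CENPA, -0.66 ± 0.38 for HJURP and -0.27 ± 0.24 for CENPF. It was 0.17 ± 0.48 for NUF2 and 0.04 ± 0.88 for SPC25. For CENPF the 95% interval ran from -0.77 to 0.23 and for CENPE from -1.96 to 0.10.

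**Figure D3:**
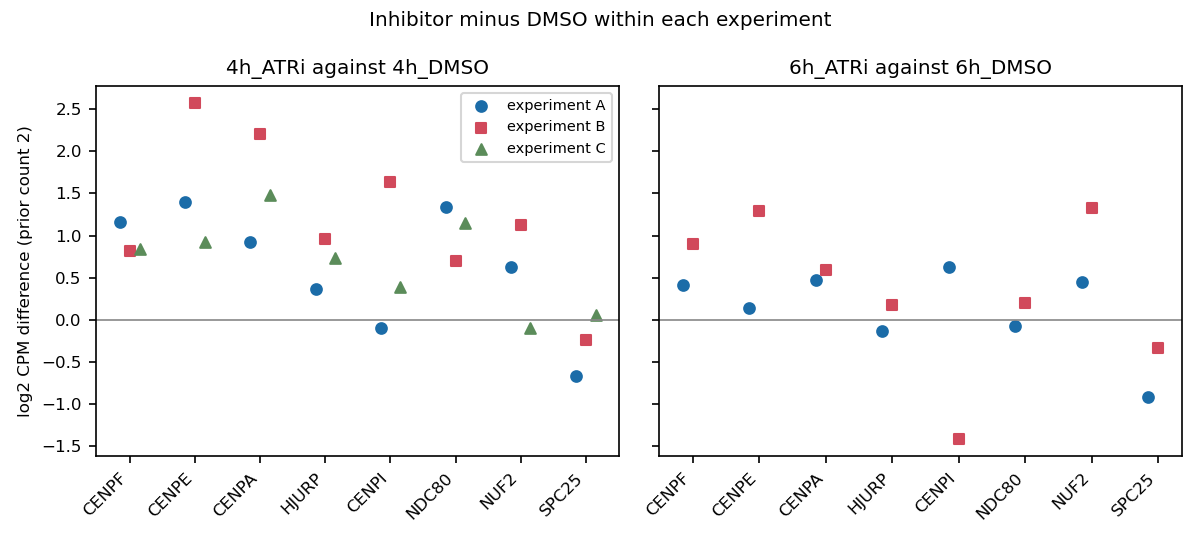
Difference in log2 CPM (vertical axis, prior count of 2) between inhibitor and DMSO within each experiment, for the 8 genes at 4 h (left, 3 experiments) and 6 h (right, 2 experiments). At 4 h CENPF, CENPE, CENPA, HJURP and NDC80 lie above the line at 0 in all 3 experiments, and at 6 h CENPF, CENPE, CENPA and NUF2 lie above it in both. The gaps between libraries of these genes already fix these signs.

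The comparison of 4h_ATRi with 6h_DMSO sets inhibited cells, after 3 h of treatment, beside DMSO cells collected 2 h later, after 5 h. No gene of the 7 was called by edgeR, against 0.0592% of all features called higher and 0.037% lower. CENPF alone had an unadjusted p under 0.05, against 2.88% of features on the higher side. DESeq2 called none. CENPF differed by 0.41 ± 0.16 (adjusted p = 0.696 by edgeR) and its 3 inhibitor libraries lay above the 3 later DMSO libraries. It was the only 1 of the 8 genes with that gap, against 5.28% of features. CENPE differed by 0.36 ± 0.32, CENPA by 0.33 ± 0.37, NUF2 by 0.39 ± 0.32, NDC80 by 0.20 ± 0.39 and HJURP by -0.33 ± 0.25. For CENPE the 95% interval ran from -0.31 to 1.02 and for HJURP from -0.83 to 0.18.

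Release without inhibitor shows how the genes move as cells pass from S phase to G2. From arrested cells to 6h_DMSO, 4 of 7 tested genes rose and none fell, against 1.27% of all features called higher and 1.06% lower. HJURP rose by 2.22 ± 0.29 (adjusted p = 3.03e-05 by edgeR), CENPF by 1.07 ± 0.17 (adjusted p = 0.000453) and CENPE by 1.46 ± 0.36 (adjusted p = 0.0304). CENPA rose by a fitted 3.66 ± 0.57 (adjusted p = 0.000301 by edgeR).
With 58 counts against 4 over 3 libraries each, the ratio of CENPA per total count was 13.9, with a 95% counting interval from 5.13 to 52.6. NDC80 differed by 0.91 ± 0.43 (adjusted p = 0.393), NUF2 by 0.53 ± 0.34 (adjusted p = 0.608) and SPC25 by 0.03 ± 0.58, all by edgeR. All 6h_DMSO libraries lay above all arrested ones for the 4 called genes and NDC80, 5 of 8, against 8.5% of features. The opposite-strand neighbour of HJURP, MROH2A, differed by 2.28 ± 0.93 (adjusted p = 0.294 by edgeR, 0.0124 with the block). CENPE lost its call without arrested A, B or C (adjusted p = 0.142, 0.0721 and 0.0515 by edgeR) and without 6h_DMSO A or C (0.158 and 0.0775).

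The earlier and later legs of this course were compared separately, and they share the 4h_DMSO libraries. From arrested cells to 4h_DMSO no gene of the 7 was called by edgeR, against 0.415% of all features called higher and 0.326% lower. CENPF, CENPA and HJURP had an unadjusted p under 0.05 there, against 4.76% of features on the higher side, and DESeq2 called none. With the block these 3 rose, against 2.25% of all features. HJURP differed by 1.21 ± 0.30 (adjusted p = 0.0564, and 0.00582 with the block) and CENPF by 0.54 ± 0.17 (0.18, and 0.0181 with the block), by edgeR. In the authors' deposited table HJURP has an adjusted p of 0.0396 for this comparison, CENPF 0.0733 and CENPE 0.92. CENPA had 24 counts against 4, a ratio of 5.50 with a counting interval from 1.89 to 21.8 (adjusted p = 0.0743 by edgeR, and 0.0212 with the block). CENPE differed by only 0.22 ± 0.38 and NDC80 by -0.10 ± 0.46. Without 4h_DMSO B, CENPA and HJURP were called (adjusted p = 0.0215 and 0.0279 by edgeR), and HJURP also without cycling B (0.0414). The gap between libraries was complete for CENPF, CENPA and HJURP, 3 of 8, against 7.19% of features.

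From 4h_DMSO to 6h_DMSO again no gene of the 7 was called by edgeR, against 0.0666% of all features called higher and 0.0148% lower. An unadjusted p under 0.05 was found for 5 of them, against 2.83% of features on the higher side, and DESeq2 called none. With the block CENPE rose by 1.24 ± 0.25 (adjusted p = 0.00158 by edgeR), HJURP by 1.02 ± 0.24 (adjusted p = 0.0052) and CENPF by 0.54 ± 0.14 (adjusted p = 0.0262), 3 of 7 against 0.651% of all features. Without the block their adjusted p by edgeR was 0.41, 0.166 and 0.504. With the block and experiment B left out HJURP was not called (adjusted p = 0.0663). CENPA differed by 1.27 ± 0.42 and NDC80 by 1.01 ± 0.43. The later libraries lay above all earlier ones for these 5 genes, against 5.11% of features. NUF2 differed by 0.21 ± 0.33 and SPC25 by 0.00 ± 0.55, with a 95% interval for SPC25 from -1.13 to 1.14.

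Arrest in thymidine was compared with asynchronous growth. CENPA fell, the only 1 of 7 tested genes called lower by edgeR, against 0.429% of all features called lower and 0.6% higher, where none of the 7 was. It had 41 counts in cycling and 4 in arrested cells, a ratio of 8.91 with a 95% counting interval from 3.23 to 34.2 (adjusted p = 0.00544 by edgeR). Without arrested B its adjusted p by edgeR was 0.0506. CENPF differed by -0.62 ± 0.17 (adjusted p = 0.095 by edgeR) and fell in the fit with the block (adjusted p = 0.00339), which made 2 of 7 against 2.83%. For these 2 of the 8 genes every arrested library lay below every cycling one, against 8.62% of features. HJURP differed by -0.62 ± 0.31, CENPE by -0.44 ± 0.37, SPC25 by -0.34 ± 0.57, NDC80 by -0.01 ± 0.46 and NUF2 by 0.09 ± 0.36. In the authors' deposited table CENPA has an adjusted p of 0.0199 for this comparison, CENPF 0.0411 and HJURP 0.681.

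**Figure D4:**
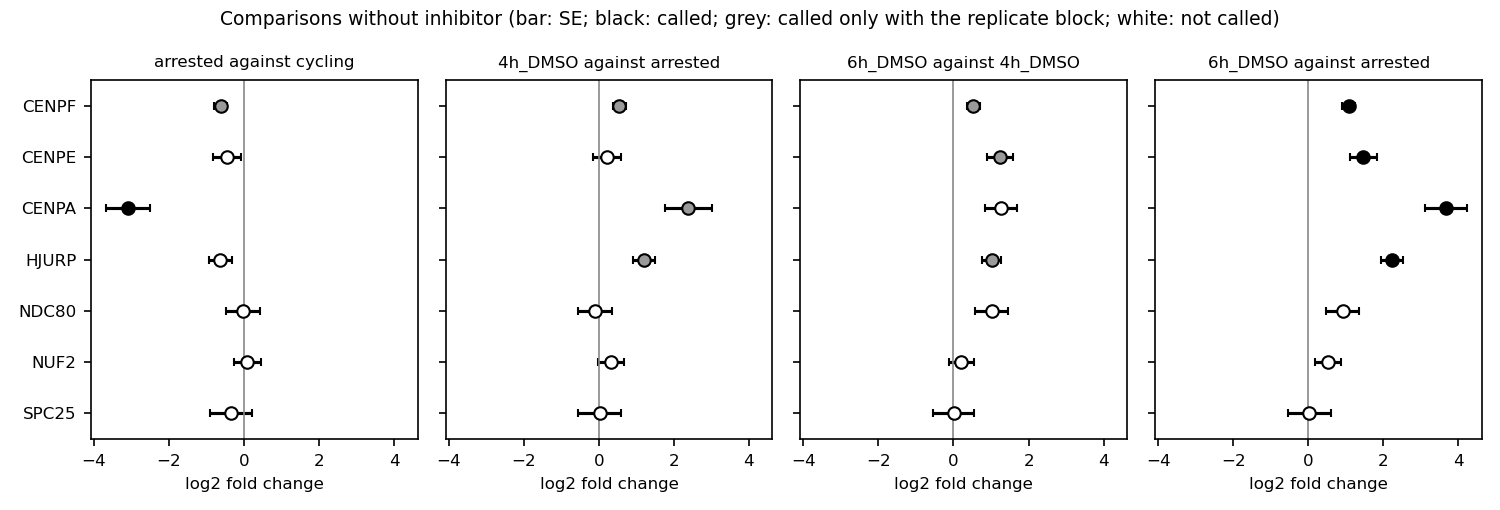
Log2 fold change (horizontal axis) with its SE for the 7 tested genes in the 4 comparisons between conditions without inhibitor. Black points are called, grey ones only with the experiment as a block; 4 genes are black in 6h_DMSO against arrested cells, and CENPA is black on the lower side in arrested against cycling cells.

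Other genes of the centromere and kinetochore were read from the same fit, as 6 groups with 50 genes, of which 40 were tested. At 4 h with inhibitor 2 of the 40 rose and none fell, against 0.289% and 0.0222% of all features. Their median log2 fold change was 0.20, against -0.01 over all features. SPC24, the partner of SPC25, rose by 1.23 ± 0.22 (adjusted p = 0.00813 by edgeR). The source of the SPC24 counts is uncertain as to the strand. NDE1, a dynein regulator, rose by 1.88 ± 0.40 (adjusted p = 0.0285 by edgeR), and its opposite-strand neighbour MYH11 rose by 1.29 ± 0.22 (adjusted p = 0.00503).
With the block 4 of the 40 rose and 1 fell, against 1.2% and 0.555% of all features. The added genes were KNL1, the scaffold of the outer kinetochore, at 1.10 ± 0.29 (adjusted p = 0.0192 by edgeR), and BUB1B, a spindle checkpoint protein, at 1.04 ± 0.31 (adjusted p = 0.05 when rounded, just under the threshold). CENPP, an inner kinetochore gene overlapped by IPPK and NOL8, fell (adjusted p = 0.00907 by edgeR with the block, for a difference of -0.48). In groups with no call the gene with the smallest p was OIP5 for CENPA deposition, at 2.08 ± 0.85 and overlapped by OIP5-AS1. For the checkpoint group it was BUB1B, and for protection of cohesion SGO2, at 0.59 ± 0.32 and overlapped by KCTD18.

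At 6 h with inhibitor none of the 40 was called by edgeR and DESeq2 called 1. An unadjusted p under 0.05 was found for 2 of the 40, near the 4.8% of all features. Their median was 0.06. SPC24 differed by 1.21 ± 0.24 (adjusted p = 0.115 by edgeR), and was called with the block (adjusted p = 1.51e-09) and by DESeq2 (adjusted p = 0.0184). In 4 of the other groups the smallest p belonged to CENPP (-0.33 ± 0.17), the checkpoint kinase BUB1 (0.69 ± 0.39), the microtubule polymerase CKAP5 (0.50 ± 0.23) and SGO1 (0.45 ± 0.56, overlapped by SGO1-AS1).

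From arrested cells to 6h_DMSO 4 of the 40 rose and none fell, against 1.27% and 1.06% of all features, with a median of 0.28. BUB1B rose by 1.21 ± 0.30 (adjusted p = 0.0229 by edgeR) and SPDL1, which recruits dynein to kinetochores, by 1.28 ± 0.35 (adjusted p = 0.045). NDE1 rose by 1.64 ± 0.40 (adjusted p = 0.0229 by edgeR), as did its neighbour MYH11 by 1.16 ± 0.22 (adjusted p = 0.00429). KIF18A, a kinesin that shortens microtubules and is overlapped by METTL15, rose by 1.83 ± 0.49 (adjusted p = 0.0456 by edgeR). DESeq2 called BUB1B and NDE1 but not SPDL1 (adjusted p = 0.08) or KIF18A (adjusted p = 0.0809).
With the block 7 rose and 1 fell, against 3.77% and 3.94% of all features. From cycling to arrested cells SPC24 fell by 1.03 ± 0.23 on the log2 scale (adjusted p = 0.0223 by edgeR), as the only 1 of 40 called, against 0.429% of all features called lower. None of the 40 was called by edgeR or DESeq2 in the other 4 comparisons. An unadjusted p under 0.05 by edgeR was found for 1 of the 40 in the difference in response, against 2.97% of all features, and for 7 in 6h_DMSO against 4h_DMSO, against 4.97%. It was found for 4 in 4h_DMSO against arrested cells, against 9.67%, and for 4 in 4h_ATRi against 6h_DMSO, against 5.57%. With the block 2 rose in 4h_DMSO against arrested cells (2.25% of all features) and 2 in 6h_DMSO against 4h_DMSO (0.651%). In 4h_ATRi against 6h_DMSO 2 rose and 2 fell with the block, against 0.807% and 0.77% of all features.

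Across the 17 libraries the level of CENPF (log2 CPM) ran with that of CENPA and CENPE at a Pearson r of 0.87 each, with HJURP at 0.83, NUF2 at 0.77 and NDC80 at 0.72. The r was 0.25 with CENPI and -0.17 with SPC25, the lowest in counts. Among 7141 other features with a mean of at least 10 CPM, those most like CENPF were MKI67, UBALD2 and CIT, at 0.93 each, and TPX2 and KIF14, at 0.92 each. Without experiment B 2 of these 5, TPX2 and KIF14, stayed among the 5 most alike. These correlations describe libraries that share their conditions and carry no test. At 4 h with inhibitor UBALD2 rose by 1.63, KIF14 by 1.93, TPX2 by 0.96 and CIT by 0.83 on the log2 scale (adjusted p = 0.000292, 0.0209, 0.0206 and 0.0426 by edgeR). CIT is overlapped by ENSG00000255692. MKI67, a proliferation marker, differed by 0.58 (adjusted p = 0.138 by edgeR), and the part of cell cycle position in the differences of the 8 genes was not tested.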

How the data were processed

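Total RNA of RPE-1 cells was extracted with Trizol and made into libraries with a KAPA stranded mRNA kit (per the labels' protocols). A table that the authors deposited holds whole-number read counts per gene, not normalised. The submitters' processing notes name TopHat, HTSeq, DESeq2 and GRCh37, and the strand setting of the counting is not given in the sources used here. The authors also deposited log2 fold changes, of which those for 6 comparisons were read here. Their deposited adjusted p-values are missing for low genes. The direction of these 6 was checked against the counts.

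Counts were tested with edgeR 4.0.16 in R 4.3.3 (TMM, filterByExpr with a minimum count of 10 and total of 15, robust glmQLFit, glmQLFTest), in 1 fit over the 17 libraries, with condition means and 11 residual degrees of freedom. An adjusted p under 0.05 over 13510 features counted as called, whatever the fold. The script was tested on simulated data. CPM are mean ± SD and log2 fold changes value ± SE. Counting intervals are exact, at 95%.

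The column letters A, B and C were taken as the 3 experiments of the design text. Each p-value sets a difference against the spread between libraries within conditions, estimated over all 6 conditions together. With the experiment as a block, differences between experiments are first taken out of that spread. Libraries sharing a letter deviated together from their condition means, with a correlation from 0.138 to 0.536 over 20 pairs, though 2 pairs correlated more with another letter. Fits with the experiment as a replicate block are given where a call changes, with 9 residual degrees of freedom and a common coefficient of variation of 0.119 in place of 0.23. Symbols were matched for 55528 of 60252 IDs. GENCODE annotation of GRCh38 gave exon lengths and overlaps only. Alternatives were the block, RLE factors, library totals, DESeq2 1.42.0, no filter, only the conditions compared, each library left out and experiment B left out.

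The 8 genes and the lists were chosen with earlier results of these data known. Named were all 8 genes, tested opposite-strand features, each other listed gene called, the smallest p of a group without a call, and the 5 features most like CENPF at a mean of 10 CPM or more. Some items that this rule names are not reported here. BUB1B, KNL1 and CENPP were named for their calls with the block.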

Additional observations from a re-analysis of the deposited data

How the results depend on the processing

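Of 1394 fold changes of the 7 tested genes under 25 alternatives to each comparison's fit, 1279 kept their direction and side of the threshold, 26 gained a call, 18 lost one and 71 changed sign. Each sign change was in a comparison where that gene had no call. Where leaving out B or a library reduces 6h_ATRi to 1 library, that library is assumed to vary like the other conditions. Depth limits CENPI, SPC25, NDC80 and CENPA in arrested cells.

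With the experiment as a replicate block, the features called went from 42 to 237 for the inhibitor at 4 h, from 1 to 72 at 6 h and from 0 to 6 for the difference between these. They went from 11 to 141 for 6h_DMSO against 4h_DMSO, from 100 to 644 for 4h_DMSO against arrested cells, from 314 to 1041 for 6h_DMSO against arrested cells, from 139 to 762 for arrested against cycling cells and from 13 to 213 for 4h_ATRi against 6h_DMSO. The members called went from 0 to 1 for the inhibitor at 6 h, from 0 to 3 in both 6h_DMSO against 4h_DMSO and 4h_DMSO against arrested cells, and from 1 to 2 in arrested against cycling cells. The other kinetochore genes called went from 2 to 5 (inhibitor at 4 h), 0 to 1 (at 6 h), 0 to 2 (6h_DMSO against 4h_DMSO and 4h_DMSO against arrested), 4 to 8 (6h_DMSO against arrested), 1 to 3 (arrested against cycling) and 0 to 4 (4h_ATRi against 6h_DMSO). Apart from these calls and those of CENPA at 4 h and MROH2A, the block changed no call of the 8 genes.

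With experiment B left out 1 of the 8 genes was called in 6h_DMSO against 4h_DMSO, 3 in 4h_DMSO against arrested and 2 in arrested against cycling, and with the block as well these were 2, 3 and 2. Of the other genes 1 was called for the inhibitor at 6 h, 2 in 6h_DMSO against 4h_DMSO, 2 in arrested against cycling and 1 in 4h_ATRi against 6h_DMSO without B. DESeq2 called 1 for the inhibitor at 6 h and 2 in 6h_DMSO against arrested. Only 1 of the 8 was called for the inhibitor at 4 h with only the compared conditions fitted, and without a filter 1 was called in 6h_DMSO against 4h_DMSO and 1 in 4h_DMSO against arrested, where library totals alone also gave 1.

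Changed signs (log2): without experiment B, and then with the block too, SPC25 was -0.28 and -0.0554 for the difference in response, -0.53 and -0.44 in 6h_DMSO against 4h_DMSO, -0.03 and -0.0066 in 4h_DMSO against arrested, -0.56 and -0.45 in 6h_DMSO against arrested and 0.30 and 0.18 in 4h_ATRi against 6h_DMSO. In arrested against cycling cells NUF2 was -0.25 and -0.25 and NDC80 0.26 and 0.27. NDC80 there was also 0.0105 with RLE factors, 0.0108 with DESeq2, 0.0204 with library totals and 0.0009 without a filter. HJURP at 6 h with inhibitor was -0.016 with library totals and -0.0294 with the block and B left out. MROH2A without B was 0.35 for the difference in response and -0.48 in 4h_ATRi against 6h_DMSO.

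With each library left out in turn, the 8 genes gave from 1 to 2 calls for the inhibitor at 4 h. All features gave from 13 to 43 calls there. The 8 genes gave from 0 to 2 in 4h_DMSO against arrested and from 0 to 1 in arrested against cycling. Totals over all features are not given for the latter 2 comparisons. SPC25 ran from -0.80 to 0.0724 for the inhibitor at 4 h, -0.97 to 0.26 at 6 h, -0.72 to 0.58 for their difference, -0.48 to 0.44 in 6h_DMSO against 4h_DMSO, -0.22 to 0.46 in 4h_DMSO against arrested, -0.45 to 0.48 in 6h_DMSO against arrested and -0.80 to 0.22 in 4h_ATRi against 6h_DMSO. NDC80 ran from -0.35 to 0.0611 for the inhibitor at 6 h, -0.30 to 0.0911 in 4h_DMSO against arrested, -0.31 to 0.31 in arrested against cycling and -0.0126 to 0.37 in 4h_ATRi against 6h_DMSO. HJURP ran from -0.16 to 0.19 for the inhibitor at 6 h, CENPE from -0.0915 to 0.57 in 4h_DMSO against arrested, and NUF2 from -0.0514 to 0.33 for the difference in response and -0.10 to 0.56 in arrested against cycling. The cause of these changes was not tested.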
